A study of Mus musculus with 4 samples.

Results

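Microglia are the resident macrophages of the brain, and a smaller set of macrophages lines its vessels and coverings. They live on signals through the receptor Csf1r, survey the tissue with receptors for nucleotides and chemokines, and take up debris through Fc, complement and TREM2 receptors that signal through small adaptor proteins. Perivascular macrophages carry the scavenger receptors Mrc1 and Cd163, which parenchymal microglia make little of at rest.

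The 34 genes described here are a list of microglial and brain macrophage genes, all of them measured, out of 18193 genes that the array names by a single symbol. For each gene the probe set with the highest mean over the 4 arrays was taken. In the order of their roles, 8 are surface and secreted genes of homeostatic microglia, 5 are growth factor receptors and transcription factors, 11 belong to phagocytosis and adhesion, 4 to pattern recognition, 3 to perivascular macrophages and lysozyme, and 3 to leukocytes or myeloid cells at large. The list was chosen by name, with earlier results of these arrays known, so no test over the list as a whole is given.

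Total RNA of prefrontal cortex was measured in 2 pools of control mice, whose environment is labelled LowThreat, and 2 pools of mice under repeated social threat, labelled HighThreat. Each pool mixed RNA from 5 mice, and the labels name no strain, age, genotype or other treatment for either group. The comparison asks which transcripts differ between the 2 environments. Values are log2 expression, so that a difference of 1 is a doubling, and in whole tissue fewer cells of a type and less RNA per cell cannot be told apart. As a guide to background, 27 control probe sets for Bacillus genes reached 4.25 at most. Every pool of every member lay above that value, the lowest being 4.26, in threat pool 1 for Cd163. The 6 genes taken as microglial markers (Cx3cr1, P2ry12, Tmem119, Csf1r, Aif1 and Itgam) were among them, and the 4 arrays correlated at 0.9942 to 0.9961 across probe sets.

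The promoters of 3 members are shown because these genes carry the contrasts described below. Of the 24 members with a promoter window, only Ctss, the lysosomal protease cathepsin S, held the letters GAGGAAGT there. These letters are a form of the site bound by the myeloid transcription factor PU.1 (the product of Spi1). Lyz2, lysozyme, had the largest difference of the list, and Fcgr3, an Fc gamma receptor, the largest of the phagocytic genes. Each stretch runs from 120 bases before to 30 bases after the start annotated by RefSeq (GRCm38.p6), 5′ to 3′ along the gene. Capitals mark GAGGAAGT or its core GGAAGT on either strand.
Ctss, chr3:95526666-95526815, plus strand: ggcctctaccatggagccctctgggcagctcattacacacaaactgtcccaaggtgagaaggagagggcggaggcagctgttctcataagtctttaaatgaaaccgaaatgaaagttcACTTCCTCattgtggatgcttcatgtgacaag
Lyz2, chr10:117282243-117282392, minus strand: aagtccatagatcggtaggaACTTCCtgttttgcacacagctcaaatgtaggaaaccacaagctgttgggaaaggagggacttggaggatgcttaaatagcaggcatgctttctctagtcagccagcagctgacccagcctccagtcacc
Fcgr3, chr1:171059374-171059523, minus strand: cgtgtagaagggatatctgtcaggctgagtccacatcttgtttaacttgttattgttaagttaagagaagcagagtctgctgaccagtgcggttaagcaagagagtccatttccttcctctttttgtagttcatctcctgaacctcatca

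Promoter windows of 300 bases were held for 24 of the 34 members. GAGGAAGT, searched on both strands, was found for 1 of these 24 genes and for 3.69% of the 27025 genes with a window. The shorter core GGAAGT, which every GAGGAAGT contains, was found for 11 of the 24 and for 26.5% of all genes. Among the 11 were Ctss, Lyz2, Sall1 and Tlr2, which lay lower in the threat pools, and also P2ry12 and Cd68, which differed by less than 0.1. A match is a string of letters, not a measured site. The search for the core was added after the data were seen.

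The list leaned towards lower values in the threat pools. Both threat pools lay below both control pools in 16 of the 34 genes and above them in none. Over all genes, 18.8% had pools separate in this way with lower threat values and 26.2% with higher ones. Over the 15051 genes whose mean lay above the Bacillus controls these shares were 18.3% and 28.7%. The median log2 difference of the members was -0.14 (quartiles -0.26 and -0.03), against 0.02 for all genes, and 28 members lay below 0 and 6 above. In limma's test with Benjamini-Hochberg adjustment over all 45037 probe sets, 0% passed an adjusted p of 0.05, and the members' adjusted p ran from 0.43 to 0.997. With no adjustment 4774 probe sets had a p under 0.05, and with 1 probe set per gene, as used here, 5.76% of all genes were lower and 4.90% higher. Of the members 5 were lower at that level, namely Cd14, Sall1, Fcgr3, Csf3r and Tlr2, and none was higher. No member with separate pools differed by 1.5-fold or more, which 0.715% of all genes did in the lower direction.

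**Figure D1:**
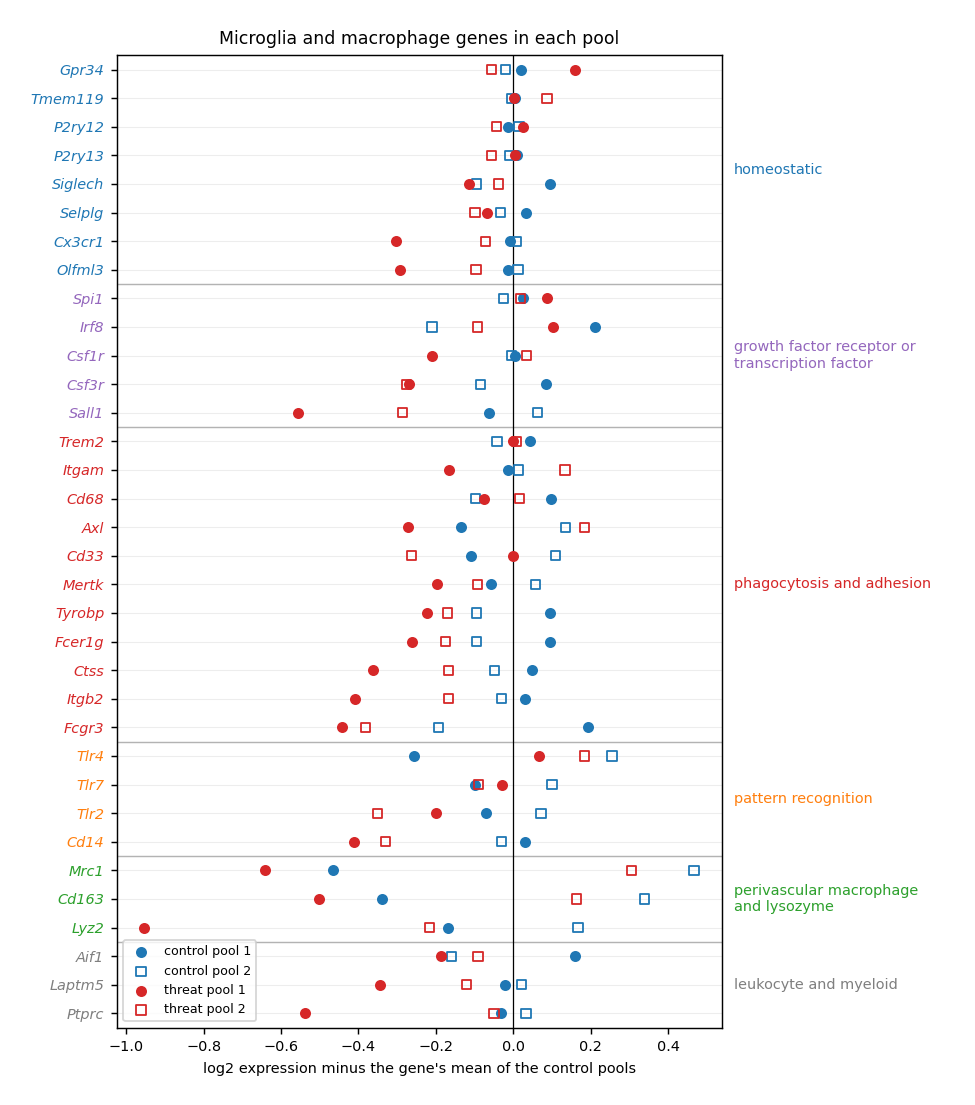
Log2 expression of the 34 genes in each of the 4 pools, minus the mean of the gene's control pools, grouped by role. Circles are pools numbered 1 and squares pools numbered 2, blue for control and red for threat. The filled red circles of threat pool 1 stand leftmost for 20 genes, and Mrc1 and Cd163 split by pool number.

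Homeostatic genes had a median difference of -0.05 over 8 genes, and of -0.12 after cyclic loess. P2ry12, the ADP receptor that steers microglial processes towards injury, measured 9.61 and 9.63 in the control pools, against 9.65 and 9.58 in the threat pools. The 4 values lay within 0.07 of each other, and the difference was -0.01 ± 0.09 (SE, n = 2 pools a side) with a 95% interval from -0.24 to 0.22. Its relative P2ry13 differed by -0.03 ± 0.09. Tmem119, a membrane protein used to tell microglia from other macrophages, measured 8.28 and 8.27 in control and 8.27 and 8.36 in threat. Its groups overlapped, with a difference of 0.04 and an interval from -0.18 to 0.27. Gpr34, a lysophospholipid receptor, differed by 0.05 and Siglech, a sialic acid-binding lectin, by -0.08, both with overlapping pools. The intervals of P2ry12, P2ry13, Tmem119, Gpr34 and Siglech all exclude a change of 1.5-fold, and their widest bound was -0.34 for Siglech. The directions of P2ry12, P2ry13, Tmem119 and Gpr34 were not fixed, since those of Tmem119 and Gpr34 turned negative after cyclic loess and those of P2ry12 and P2ry13 turned positive when arrays were centred on their medians.

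The other 3 homeostatic genes had separate pools. Cx3cr1, the receptor for the neuronal chemokine fractalkine, measured 8.78 and 8.80 in control and 8.48 and 8.72 in threat. Olfml3, a secreted protein, measured 9.29 and 9.31 in control and 9.01 and 9.20 in threat. In both genes threat pool 1 stood well below the other pools, while threat pool 2 lay under the lower control pool by 0.06 for Cx3cr1 and 0.08 for Olfml3. The differences were -0.19 ± 0.11 for Cx3cr1 (adjusted p = 0.56 in limma's test) and -0.19 ± 0.11 for Olfml3 (adjusted p = 0.53), and without threat pool 1 they came to -0.07 and -0.10. The second probe set of Cx3cr1 overlapped between groups and differed by -0.07. Selplg, the P-selectin ligand that marks microglia within the brain, differed by -0.08 ± 0.09.

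Among growth factor receptors and transcription factors the genes parted ways. Sall1, a zinc finger transcription factor needed for microglial identity, measured 7.42 and 7.55 in the control pools, against 6.93 and 7.20 in the threat pools. The groups did not overlap, and the difference was -0.42 ± 0.13, or 1.34-fold lower (adjusted p = 0.44 in limma's test). Its second probe set was also separate, at 6.19 and 6.24 in control and 5.88 and 5.95 in threat, a difference of -0.30 ± 0.09. Without 1 pool in turn, the difference of Sall1 lay between -0.29 (without threat pool 1) and -0.56 (without threat pool 2). Csf3r, the receptor for granulocyte colony-stimulating factor and a gene of neutrophils as well as microglia, measured 5.52 and 5.35 in control and 5.16 in each threat pool, a difference of -0.27 ± 0.10.

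The remaining genes of that group showed no such gap. Csf1r, the receptor on which microglia depend for survival, measured 11.79 and 11.78 in control and 11.57 and 11.82 in threat. Its groups overlapped, the difference was -0.09 ± 0.11 (interval -0.37 to 0.20), and threat pool 1 alone was low. Of its 2 other probe sets, 1 differed by -0.05 with overlap and 1 by -0.21 with separate pools. Spi1, which encodes the myeloid master regulator PU.1, measured 6.41 and 6.36 in control and 6.47 and 6.41 in threat, a difference of 0.05 ± 0.09. Irf8, a partner of PU.1 in myeloid cells, differed by 0.01 ± 0.16, with control pools 0.42 apart. Its second probe set lay at -0.14 with separate pools.

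Phagocytosis and adhesion genes held 6 of the 16 members with separate pools. In 6 of the 11 genes of this group (54.5%) both threat pools lay below both control pools, against 18.8% of all genes. In none did they lie above, against 26.2% of all genes, and the median was -0.14. Fcgr3, a low-affinity Fc gamma receptor that binds antibody-coated targets, measured 8.83 and 8.45 in control and 8.20 and 8.26 in threat. Control pool 1 stood high, and the other control pool lay 0.19 above the higher threat pool. The difference was -0.41 ± 0.15 or 1.33-fold (adjusted p = 0.45 in limma's test), and it came to -0.22 without control pool 1. Fcer1g, the adaptor chain that carries the signal of Fc receptors, measured 8.67 and 8.48 in control and 8.31 and 8.40 in threat, a difference of -0.22 ± 0.11. Tyrobp, also called DAP12, the adaptor of TREM2 and related receptors, measured 9.75 and 9.56 in control and 9.43 and 9.49 in threat. Its difference was -0.20 ± 0.11, and both adaptors followed Fcgr3 in having their highest value in control pool 1. Without that pool they came to -0.12 for Fcer1g and -0.10 for Tyrobp.

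Trem2, the lipid-sensing receptor that signals through Tyrobp, did not separate. It measured 7.72 and 7.64 in control and 7.68 and 7.69 in threat, a difference of 0.00 ± 0.09 (interval -0.23 to 0.23), which turned to -0.07 after cyclic loess. Its second probe set, with a mean under the highest Bacillus value, differed by 0.29 and is too near background to be read. Cd33, an inhibitory lectin that opposes TREM2 signalling, overlapped and differed by -0.13 ± 0.13.

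Cathepsin S and the integrin chain Itgb2 lay lower and threat pool 1 was the lowest in both. Ctss measured 11.88 and 11.78 in control and 11.47 and 11.66 in threat, a difference of -0.27 ± 0.11. Itgb2, the beta chain shared by the leukocyte integrins, measured 6.90 and 6.83 in control and 6.46 and 6.70 in threat, a difference of -0.29 ± 0.12 (adjusted p = 0.47 in limma's test). Without threat pool 1 the difference was -0.17 for each of these genes. Its partner Itgam, the alpha chain of complement receptor 3, overlapped at 6.74 and 6.77 in control and 6.59 and 6.89 in threat and differed by -0.02. Cd68, a lysosomal glycoprotein of phagocytes, differed by -0.03 with overlap, and the signs of Itgam and Cd68 turned when arrays were centred on their medians. Of the receptors for apoptotic cells, Mertk had separate pools at -0.14 ± 0.10 and Axl overlapped at -0.04 ± 0.18. Both are also made by cells other than microglia.

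**Figure D2:**
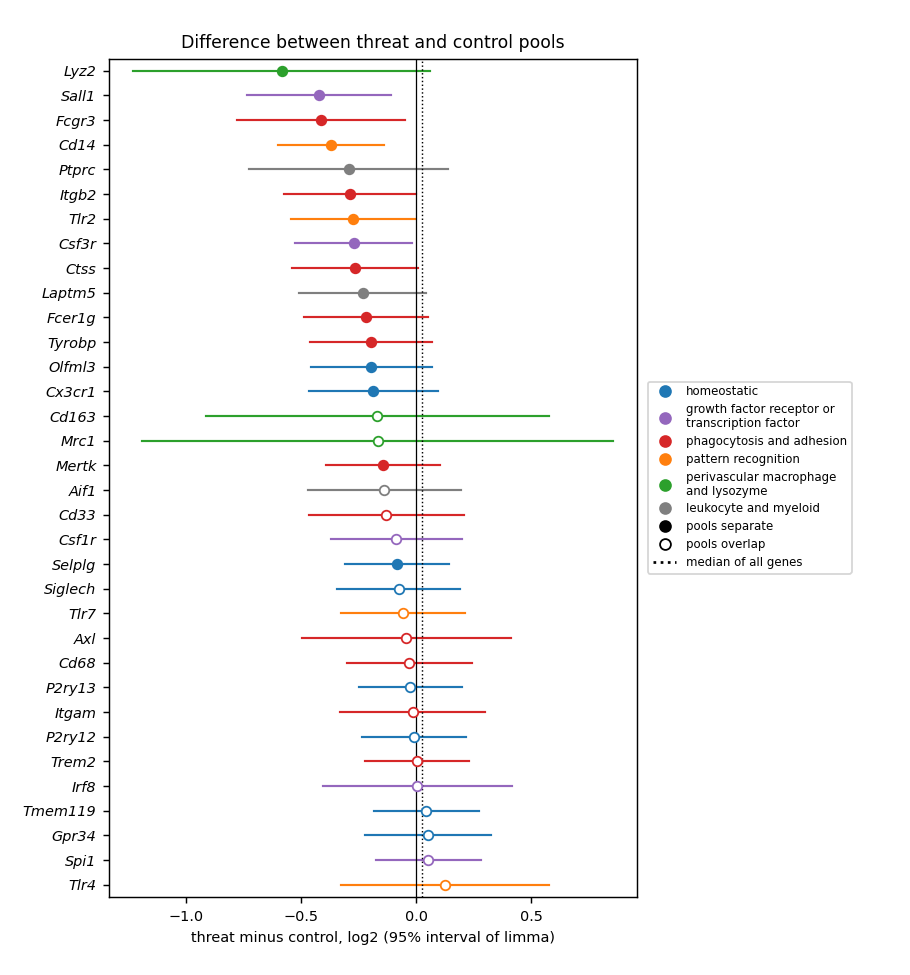
Threat minus control difference (log2) of each gene with its 95% interval from limma, ordered by size and coloured by role. Filled points mark the 16 genes with separate pools, open points the 18 with overlap, and the dotted line the median of all genes at 0.02. The intervals of 29 genes include 0.

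Pattern recognition genes were split. Cd14, the co-receptor that hands lipopolysaccharide to toll-like receptors, measured 6.80 and 6.74 in the control pools, against 6.36 and 6.44 in the threat pools. The groups stood 0.30 apart with pools of a group within 0.08 of each other, and the difference was -0.37 ± 0.09 or 1.29-fold (adjusted p = 0.43 in limma's test). It was the member with the smallest p, and the difference lay between -0.33 and -0.41 with any single pool left out. Tlr2, the receptor for bacterial lipoproteins, measured 5.52 and 5.66 in control and 5.39 and 5.24 in threat, a difference of -0.28 ± 0.11. Tlr4, the lipopolysaccharide receptor itself, measured 4.65 and 5.16 in control and 4.97 and 5.09 in threat. Its groups overlapped and the difference was 0.13 ± 0.18, while its second probe set, with a mean under the highest Bacillus value, lay at -0.29. Tlr7, the sensor of single-stranded RNA, differed by -0.06 with overlap.

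Mrc1 and Cd163, the perivascular macrophage genes, varied more between pools of a group than between the groups. Mrc1, the mannose receptor, measured 6.87 and 7.81 in the control pools, against 6.70 and 7.65 in the threat pools. Cd163, the scavenger receptor for haptoglobin and haemoglobin, measured 4.43 and 5.10 in control and 4.26 and 4.93 in threat. Its pools numbered 1 lay close to the highest Bacillus value of 4.25, which leaves the size of its differences uncertain. In both genes the pools numbered 2 were high and those numbered 1 low in each group. The differences between groups were -0.17 ± 0.41 for Mrc1 (interval -1.19 to 0.86) and -0.17 ± 0.30 for Cd163 (interval -0.91 to 0.58). Between pools of the same number, threat minus control was -0.17 and -0.16 for Mrc1 and -0.16 and -0.18 for Cd163, in the order of pools 1 and 2. The labels do not say that the numbers pair the pools. With 1 pool left out the numbers were no longer balanced between the groups, and the signs turned: without control pool 2 and without threat pool 1 they were 0.30 and 0.31 for Mrc1 and 0.17 and 0.16 for Cd163, and without control pool 1 -0.63 and -0.51.

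Lyz2, which microglia, other macrophages and neutrophils all make, had the largest difference of the 34. It measured 8.45 and 8.79 in control and 7.67 and 8.40 in threat. Threat pool 1 was far below the rest, and threat pool 2 lay 0.05 below control pool 1. The difference was -0.58 ± 0.26, just under 1.5-fold (adjusted p = 0.49 in limma's test), and it came to -0.22 without threat pool 1 and -0.95 without threat pool 2.

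The same split by pool number was seen in other genes of border macrophages. Of 11 measured, 9 were lower in pool 1 than in pool 2 of both groups, as against 4282 of all 18193 genes. F13a1, a coagulation factor subunit made by these macrophages, measured 6.86 and 7.74 in control and 6.61 and 7.56 in threat. Dab2, an endocytic adaptor, measured 7.13 and 8.01 in control and 7.03 and 7.90 in threat. The difference between groups was -0.22 for F13a1 and -0.10 for Dab2, well under the gap within each group. Of the 11 genes 2 (18.2%) had separate pools with threat lower, close to the 18.8% of all genes. These were Folr2, the macrophage folate receptor, and Siglec1, the sialoadhesin of perivascular macrophages, at -0.55 ± 0.15 and -0.44 ± 0.20. Folr2 measured 4.34 in threat pool 1, next to the Bacillus value, and 4.70 in threat pool 2, which leaves the size of its difference uncertain. Siglec1 came to -0.15 without control pool 1, and its second probe set lay at 0.20. The largest differences after these were those of Ms4a7 at -0.43 and Lyve1 at -0.23, with overlap. The median of the 11 was -0.13.

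**Figure D3:**
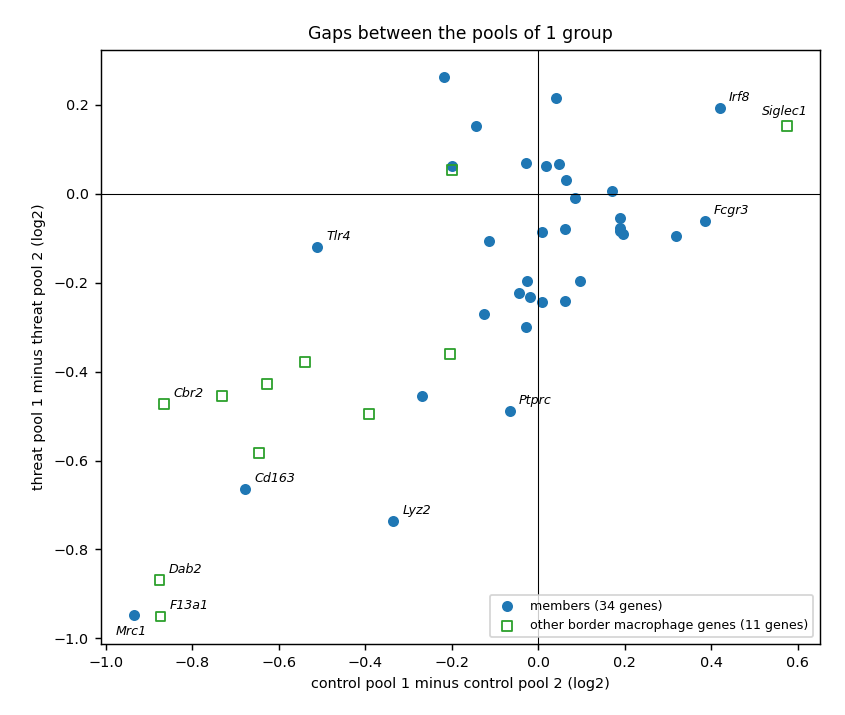
Gap between the pools of the control group (horizontal axis) and of the threat group (vertical axis), in log2, for the 34 members (blue circles) and 11 other border macrophage genes (green squares). Mrc1, Cd163, F13a1 and Dab2 lie far to the lower left, with pool 1 below pool 2 in both groups, while most members lie near 0.

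Marker levels of vessel and covering cells followed the same order of pools. The mean log2 level of 11 mural and meningeal genes was 8.56 and 9.48 in the control pools, against 7.91 and 8.71 in the threat pools, and 10 of the 11 were lower in pool 1 of both groups. For 9 endothelial genes the mean was 6.79 and 7.26 in control and 6.45 and 6.90 in threat, with 8 lower in pool 1 of both groups. None of these genes lay at or below the Bacillus controls in all pools. The mean of Mrc1, Cd163 and Lyz2 was 6.58 and 7.23 in control and 6.21 and 6.99 in threat. How far the tissue content of vessels and coverings bears on the macrophage values was not tested.

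Pan-leukocyte and myeloid genes lay slightly lower. Ptprc, the leukocyte phosphatase CD45, measured 6.86 and 6.93 in control and 6.36 and 6.85 in threat, so that its difference of -0.29 ± 0.17 rested on threat pool 1 (-0.05 without it). A second probe set of Ptprc lay at 0.36, but none of its pools exceeded the Bacillus controls. Laptm5, a lysosomal membrane protein of blood cells and microglia, measured 9.43 and 9.48 in control and 9.11 and 9.33 in threat, a difference of -0.23 ± 0.11 that came to -0.12 without threat pool 1. Of its other probe sets, 1 was higher in both threat pools, at 5.52 and 5.30 in control and 5.89 and 5.90 in threat (0.49 ± 0.11, adjusted p = 0.42 in limma's test), 1 was lower at -0.12 and 1 overlapped at 0.04. The probe sets of Laptm5 thus disagree, and the sign of the gene depends on which is read. Aif1, the calcium-binding protein IBA1, overlapped at 8.15 and 7.84 in control and 7.81 and 7.90 in threat and differed by -0.14 ± 0.13.

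Single pools weighed on the list. Threat pool 1 held the lowest of the 4 values in 20 of 34 members (58.8%), against 19.8% of all genes. Leaving it out brought the median of the members from -0.14 to -0.09, while that of all genes went from 0.02 to 0.01. Dropping threat pool 2 instead moved the members' median to -0.20. When control pool 1 or control pool 2 was dropped, it was -0.17 or -0.15, in that order. The scaling of the arrays mattered as well. Centred on their medians, the arrays gave 14 members lower and 2 higher with separate pools (Tmem119 and Spi1), with 14.7% of all genes lower and 33.4% higher. After cyclic loess there were 21 lower and none higher, with 21.8% of all genes lower and 20.2% higher. The median of the members was -0.11 and -0.18 under these scalings, against 0.06 and 0.0022 for all genes.

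Markers of other cell types moved over the same pools. For 10 oligodendrocyte genes the mean log2 level was 10.41 and 9.92 in control and 9.05 and 9.26 in threat, and all 10 had separate pools with a median difference of -0.98. For 10 astrocyte genes it was 10.79 and 10.82 in control and 10.49 and 10.71 in threat, and threat pool 1 was lowest in 9 of them. Of the astrocyte genes 5 were lower in both threat pools, as were 5 of 9 endothelial and 5 of 11 mural and meningeal genes. None of these lists held a gene higher in both. Of the members 16 of 34 were lower, and over all genes 18.8% were lower and 26.2% higher in this way. Of 10 neuronal genes 5 were lower and 1 higher in both threat pools, with means of 11.82 and 11.89 in control and 11.78 in each threat pool. The lowest was Gad1, a GABA-synthesising enzyme, at -0.42, while its second probe set lay at 0.13. Of 21 blood cell genes 8 were lower and 1 higher in both threat pools, and 4 did not exceed the Bacillus controls in any pool. The mean of the list was 5.29 and 5.07 in control and 5.04 and 4.89 in threat. Among its neutrophil genes, S100a8 and S100a9 measured 7.62 and 7.38 in control pool 1 and 5.81 to 6.49 in the other pools. Camp, Ngp and Ltf, which encode granule proteins of neutrophils, had no such peak. Control pool 1 was at 5.85, 5.82 and 5.86 and the other pools between 5.45 and 5.85, so that control pool 1 was the highest by a small margin. Elane, another neutrophil granule gene, measured 5.53 and 5.31 in control and 5.26 and 5.02 in threat. Of the red cell genes, Alas2 measured 6.92 and 7.11 in control and 6.49 and 6.31 in threat (-0.61 ± 0.12), while Hba-a1 overlapped at -0.16. In all, control pool 1 was the highest pool for 13 of the 21 blood cell genes. Control pool 1 was also the highest pool for 14 of the 34 members, against 4969 of all 18193 genes, and control pool 2 for 13. The 14 included Fcgr3, Fcer1g, Tyrobp and Csf3r, which neutrophils make too, and also P2ry13, Siglech and Trem2. Lyz2, another gene of neutrophils, was highest in control pool 2. Of 6 choroid plexus genes 3 were lower in both threat pools and none higher. Of the 6, 2 did not exceed the Bacillus controls in any pool, and Otx2, counted as lower, was among these. Ttr, also lower, measured 9.05 in control pool 1 and 6.15 to 6.48 in the other pools. The part of these shifts in the microglial values was not tested.

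**Figure D4:**
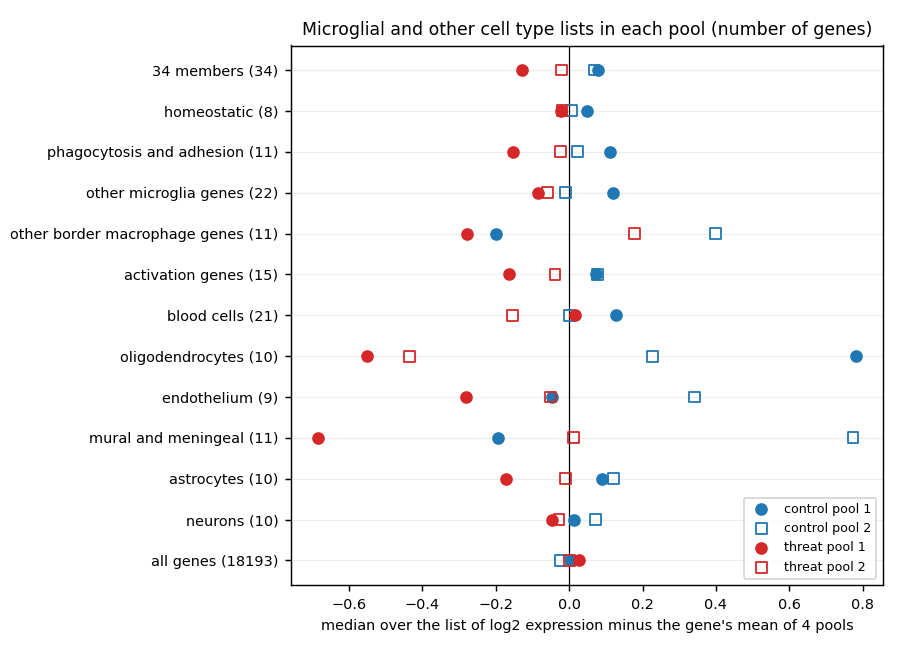
Median over each gene list of log2 expression minus the gene's own mean of the 4 pools, with the number of genes in parentheses. The homeostatic genes stay near 0 in every pool, the border macrophage, endothelial and mural lists are higher in the pools numbered 2 of each group, and oligodendrocyte genes part by group.

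Further microglial genes, outside the 34, also leaned lower. Of 22 measured, 12 were lower in both threat pools (54.5%, against 18.8% of all genes), with a median of -0.17. None was higher in both, against 26.2% of all genes. The complement chains C1qa and C1qb, made in the brain mainly by microglia, lay at -0.33 ± 0.14 and -0.29 ± 0.12. Fcgr1, the high-affinity Fc gamma receptor, was at -0.30 ± 0.10 and Runx1, a transcription factor of myeloid cells, at -0.29 ± 0.13. All 4 had an adjusted p between 0.45 and 0.49 in limma's test, and control pool 1 was the highest pool in 15 of the 22 genes. Without control pool 1 the differences were -0.15 for C1qa and -0.17 for C1qb, and without threat pool 2 that of Runx1 was -0.17.

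Genes that microglia switch on in disease or around plaques had a median difference of -0.14. Of 15 measured, 4 were lower in both threat pools (26.7%, against 18.8% of all genes) and 1, the cathepsin Ctsb at 0.09 ± 0.09, was higher (6.67%, against 26.2%). Ch25h, which makes an antiviral oxysterol, measured 5.54 and 5.92 in control and 4.98 and 5.31 in threat, a difference of -0.58 ± 0.18. The galectin Lgals3 lay at -0.46 ± 0.14, Cd52, a small surface glycoprotein of leukocytes, at -0.44 ± 0.14 and the tetraspanin Cd9 at -0.30 ± 0.11. Without threat pool 1 that of Cd52 was -0.26, without control pool 2 that of Lgals3 was -0.30, and without control pool 1 that of Cd9 was -0.20. Lgals3 measured 4.86 and 5.18 in control and 4.63 and 4.49 in threat, not far above the Bacillus value. The second probe set of Ctsb lay at -0.073. Cybb, the catalytic subunit of the phagocyte oxidase, overlapped at 4.54 and 5.04 in control and 3.52 and 5.00 in threat, with threat pool 1 under the Bacillus value, which leaves its difference of -0.53 uncertain in size.

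Ligands and partners of the members lay on both sides of 0. Of 19 measured, 5 (26.3%) were lower and 4 (21.1%) higher in both threat pools, against 18.8% and 26.2% of all genes, with a median of -0.04. Tgfb1, the growth factor that maintains the homeostatic state, lay at -0.34 ± 0.15, Icam1, the endothelial ligand of the beta 2 integrins, at -0.46 ± 0.22 and Plcg2, a phospholipase downstream of TREM2, at -0.28 ± 0.12. Without threat pool 1 they came to -0.18, -0.14 and -0.15, and the second probe set of Tgfb1 lay at 0.044. Tlr6, which pairs with TLR2, lay at -0.25 ± 0.09, with threat pools of 4.30 and 4.27 next to the Bacillus value, and Unc93b1, which carries TLR7 to endosomes, at -0.09 ± 0.09. The 4 higher ones were Il34, the neuronal ligand of Csf1r, at 0.17 ± 0.10, Gas6, the ligand of Axl and Mertk, at 0.10 ± 0.09, the "do not eat me" signal Cd47 at 0.09 ± 0.09 and its receptor Sirpa at 0.08 ± 0.09. Csf1, the other ligand of Csf1r, and Cx3cl1, the ligand of Cx3cr1, overlapped between groups at -0.07 ± 0.17 and 0.02 ± 0.10. Lbp, which loads lipopolysaccharide onto CD14, overlapped and split by pool number, at 6.77 and 7.49 in control and 6.22 and 7.14 in threat, and its difference of -0.45 came to 0.012 without threat pool 1. Icam1 lay under the Bacillus value in threat pool 1, at 3.95, which leaves the size of its difference uncertain.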

How the data were processed

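Affymetrix MOE430 2.0 arrays of 4 RNA pools were used, each pool from 5 mice. The authors deposited log2 expression values per probe set, made with RMA per the submitters' processing notes. Its version and settings are not stated in the labels used here. Where RMA brings arrays to a common distribution, a shift of most transcripts in 1 direction is not visible. Of 45101 rows, 64 control probe sets were left out and 45037 tested, of which 34945 have 1 symbol in the platform annotation.

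Threat was compared with control with the linear model of limma 3.58.1 (R 4.3.3; empirical Bayes without trend, 2-sided, Benjamini-Hochberg over all probe sets, 2 residual degrees of freedom), tested on simulated data. Pools are "separate" where both threat pools lie on 1 side of both control pools. With 2 pools a side the smallest exact permutation p is 0.333, so no such test was run. The p-values measure the spread between pools, not animals, and 4 arrays limit the precision. Members and lists were chosen with earlier results of these data known. All members are named. The plan was to name up to 4 genes per other list by size of difference, but not all of these are named. Further genes were named for their role after their values were seen. Promoter windows came from a RefSeq table; a planned search of protein motifs was not run. Alternatives were scaling, filters, probe set choice, a replicate block and leaving out each pool.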

Additional observations from a re-analysis of the deposited data

How the results depend on the processing

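Over the alternatives fitted by probe set limma called 0 at an adjusted p of 0.05, and 0 of 18193 genes with their probe sets averaged. The median of the members held stayed below 0 under all 13 alternatives, between -0.091 and -0.204 with 1 pool left out. The replicate block, an intensity trend in limma and the Bacillus filter could not move it, since they leave each member's difference as it was. The filter at the median of all probe sets kept 28 members, and 10 had a second probe set. With 1 pool left out, 20 to 23 members were lower and 2 to 5 higher with separate pools, where fewer pools have to be separate, against 29.6% to 34.7% of all genes lower and 36.6% to 44.4% higher. At an unadjusted p under 0.05 it was 1 to 7 lower and 0 to 1 higher, with 2922 to 4037 probe sets in all. With the pool number as a replicate block, 5 members were again lower at that level, with Lyz2 in place of Tlr2, and 6054 probe sets passed it. No adjusted call changed. For Mrc1 and Cd163 the SE of the difference was 0.076 with the block, against 0.41 and 0.30, and the adjusted p in limma's test 0.41 for each. The gaps between pools 1 and 2 of the groups correlated at 0.33 over all probe sets, but the labels do not say that numbers pair pools.

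The number of members lower at an unadjusted p under 0.05 (limma) was 8 after cyclic loess, with 4465 probe sets passing in either direction. It was 3 with centred arrays (5234 probe sets) and 3 among probe sets above the median (3075 probe sets). With separate pools, 2 members were higher in centred arrays, against 33.4% of all genes. There were 2 higher without _x_at and _s_at probe sets (2 at an unadjusted p under 0.05, with 4013 probe sets passing) and 1 when the probe sets of a gene were averaged. A minimum of 1.2-fold left 9 members lower and one of 1.5-fold left 0, against 0.715% of all genes at 1.5-fold. For the other counts no share of all genes was worked out. The second probe set, held by 10 members, gave 5 lower and 2 higher with separate pools, and 1 and 2 at an unadjusted p under 0.05. The higher ones, Ptprc and Trem2, had means under the highest Bacillus value, as did Axl and Tlr4 among the lower ones. These are too near background to be read, and no share of all genes was worked out for second probe sets.

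Signs turned as follows; the cause was not tested. Cyclic loess gave -0.030 for Tmem119, -0.013 for Gpr34 and -0.068 for Trem2. Centring gave 0.027 for P2ry12, 0.01 for P2ry13, 0.020 for Itgam and 0.0063 for Cd68. Laptm5 was at 0.49 without _x_at and _s_at probe sets. The mean of probe sets gave -0.066 for Irf8, -0.022 for Tlr4, 0.020 for Tlr7, 0.032 for Ptprc, 0.035 for Laptm5, 0.053 for Map2, 0.087 for Csf1, -0.11 for Cx3cl1 and 0.0049 for Dab2. The second probe set gave -0.14 for Irf8, -0.29 for Tlr4, 0.36 for Ptprc, 0.20 for Siglec1, 0.044 for Tgfb1, 0.0014 for Pdgfrb, 0.069 for Fgfr3, 0.14 for Csf1, -0.073 for Ctsb and 0.13 for both Gad1 and Gad2. Leaving out 1 pool gave ranges of -0.30 to 0.021 for Aif1, -0.27 to 0.18 for Axl, -0.51 to 0.17 for Cd163, -0.26 to 0.00025 for Cd33, -0.13 to 0.069 for Cd68, -0.21 to 0.033 for Csf1r, -0.056 to 0.16 for Gpr34, -0.20 to 0.22 for Irf8, -0.17 to 0.13 for Itgam, -0.64 to 0.31 for Mrc1, -0.043 to 0.026 for P2ry12, -0.057 to 0.0056 for P2ry13, -0.17 to 0.018 for Siglech, -0.13 to 0.38 for Tlr4, -0.16 to 0.041 for Tlr7 and -0.039 to 0.045 for Trem2. Among genes of other lists it gave -1.27 to 0.21 for Cybb, -0.75 to 0.032 for Gjb6, -0.91 to 0.012 for Lbp, -0.54 to 0.085 for Lyve1, -0.28 to 0.14 for Csf1, -0.053 to 0.096 for Cx3cl1, -0.54 to 0.33 for Dab2, -0.69 to 0.26 for F13a1, -0.30 to 0.087 for Ltf, -0.32 to 0.013 for Ngp and -0.67 to 0.016 for Tek. Over all settings 14 members stayed below 0.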
